A study of Mus musculus with 16 samples.

Results

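The IL-6 family of cytokines and its signaling chain were followed in cocultures of murine pancreatic stellate cells (PSCs) and sympathetic ganglia. The 10 genes were the ligands Il6, Lif, Osm and Il11, the receptor chains Il6ra, Osmr, Lifr and Il6st, the transcription factor Stat3 and its feedback inhibitor Socs3. They were taken by gene symbol from the 21684 protein-coding genes among the 56941 genes of each table, and each symbol matched 1 gene. Bulk RNA-seq had been made from 16 libraries in 5 groups. PSC libraries were mPSC1 cells, an immortalized murine stellate cell line, cultured alone (PSC, n = 3) or with explants of superior cervical ganglia (PSC+SCG, n = 3). Nerve libraries were explants on their own (SCG, n = 3), explants next to mouse embryonic fibroblasts of the NIH 3T3 line (SCG+MEF, n = 3) or explants next to mPSC1 cells (SCG+PSC, n = 4). Explants came from wild-type C57BL/6J pups at postnatal day 1 to 4, with 8 to 13 explants in a well. In cocultures the insert above them held 10000 cells. Cultures with explants ran for about 70 hours. Cells and explants shared medium without contact. Each fibroblast type was therefore 1 immortalized line, and the ganglion medium held nerve growth factor. For PSCs cultured alone, the sources used here do not give the medium, the number of cells seeded or the culture time. The labels do not say whether replicates were separate cultures, so the p-values measure the spread between these libraries, which may be technical.

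Cytokines of this family bind a ligand-specific chain and then the shared chain gp130, the product of Il6st. IL-6 and IL-11 signal through gp130 pairs, LIF through gp130 with the LIF receptor (Lifr), and oncostatin M (Osm) through gp130 with the oncostatin M receptor (Osmr). JAK kinases bound to the chains phosphorylate STAT3, which enters the nucleus and induces, among others, Socs3, whose product blocks gp130 signaling. In pancreatic tumors IL-6 and LIF are known as products of inflammatory fibroblasts, and in sympathetic ganglia LIF is known as an injury cytokine that switches neurotransmitter genes.

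The tables hold normalized counts, the reads on a gene divided by the size factor of the library, which was set apart for the PSC and for the nerve libraries. Recovered reads on genes ranged from 31900689 to 41632381 in 14 of the 16 libraries. Explants expressed the markers of sympathetic neurons, with Th, which encodes tyrosine hydroxylase, at a mean of 19199 to 26038 normalized counts in the 3 groups. They also held markers of glia, macrophages, endothelial cells and fibroblasts, so a level in explants is a mixture of cell types, in which fewer cells of a type and less RNA per cell cannot be told apart. In PSC+SCG, Th and Slc18a2 were at 0 in all 3 libraries, and the 8 neuronal markers summed to 561 to 1003 normalized counts against 671 to 813 in PSC, nearly all of it Hand2.

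Promoter sequences of Osmr and Socs3 are shown because these were the members with a call in PSCs, and that of Lifr because it was the only member with a STAT-type motif in the window. Each window is the 250 bases before the most upstream start of the gene in GENCODE M39 (GRCm39), which for Osmr and Socs3 lies upstream of the start in RefSeq, and none of the 3 overlaps an annotated exon. Osmr lies on the minus strand with its window at chr15:6904451-6904700, Socs3 on the minus strand at chr11:117860899-117861148, and Lifr on the plus strand at chr15:7119845-7120094. Capitals mark the motif TTCNNNGAA, which reads the same on both strands.
Osmr: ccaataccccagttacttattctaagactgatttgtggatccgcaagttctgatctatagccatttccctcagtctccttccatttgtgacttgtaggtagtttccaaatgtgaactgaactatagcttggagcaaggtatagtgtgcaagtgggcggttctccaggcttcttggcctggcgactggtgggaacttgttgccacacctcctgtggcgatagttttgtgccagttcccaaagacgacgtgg
Socs3: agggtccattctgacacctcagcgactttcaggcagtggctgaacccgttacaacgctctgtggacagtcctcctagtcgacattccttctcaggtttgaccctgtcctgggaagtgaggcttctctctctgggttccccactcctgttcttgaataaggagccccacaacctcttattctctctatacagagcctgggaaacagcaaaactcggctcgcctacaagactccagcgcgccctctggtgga
Lifr: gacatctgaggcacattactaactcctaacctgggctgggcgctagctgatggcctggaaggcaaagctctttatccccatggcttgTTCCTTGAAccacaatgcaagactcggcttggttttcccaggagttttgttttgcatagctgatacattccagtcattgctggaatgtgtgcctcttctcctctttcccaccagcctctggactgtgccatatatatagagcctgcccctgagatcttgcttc
The motif was in 1702 of 21757 protein-coding windows of this length (7.82%) and in 1 of the 10 members, in Lifr at 163 bases before the start. A match is a description of these letters and not of a bound site, and the absence of a match says only that the letters are not in this window.

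Levels per kilobase of exon, which allow genes to be compared, put Il6st and Stat3 at the top of the family in every group. In PSC the mean normalized count per kilobase was 870 ± 84.7 (SD, n = 3) for Il6st and 706 ± 141 for Stat3, and these neighbours overlapped between libraries. Socs3 (385 ± 130) and Osmr (321 ± 147) followed and overlapped each other. Lif (147 ± 14.1) was the highest of these 4 ligands, above Il6ra (119 ± 13.9) and Lifr (108 ± 23.0), which overlapped. Il6 (22.6 ± 8.01) and Il11 (6.61 ± 1.08) were low, and Osm was at 0 in 2 of the 3 PSC libraries and in all 3 PSC+SCG libraries. A count of 0 allows up to 3 reads, which is 2.54 to 3.41 normalized counts in the 5 PSC-table libraries with recovered reads, for counting error only.

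In SCG the order of the ligands and receptors differed from that in PSC. Stat3 had 1027 ± 77.6 normalized counts per kilobase and Il6st 914 ± 139, which overlapped. Lif reached 480 ± 211 and overlapped its receptor Lifr at 327 ± 82.3, whereas Osmr stood lower, at 108 ± 47.0. Il11 (68.7 ± 27.8) overlapped Il6ra (76.3 ± 8.36), and Il6 (17.7 ± 5.94) and Osm (4.39 ± 3.67) were lowest. The ligand order Lif, Il11, Il6, Osm held for the means of all 3 explant groups, although Il6 and Osm overlapped in SCG+MEF and in SCG+PSC.

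The ratio of Osmr to Lifr within a library does not depend on the size factor and was read across both tables. Per kilobase, Osmr exceeded Lifr in each of the 6 PSC-table libraries, by 3.84, 2.57 and 2.22 times in PSC replicates 1 to 3 and by 4.63, 3.06 and 3.23 times in PSC+SCG replicates 1 to 3. In each of the 10 explant libraries Osmr was lower than Lifr, with ratios from 0.21 to 0.60. No test was run across the tables.

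**Figure D1:**
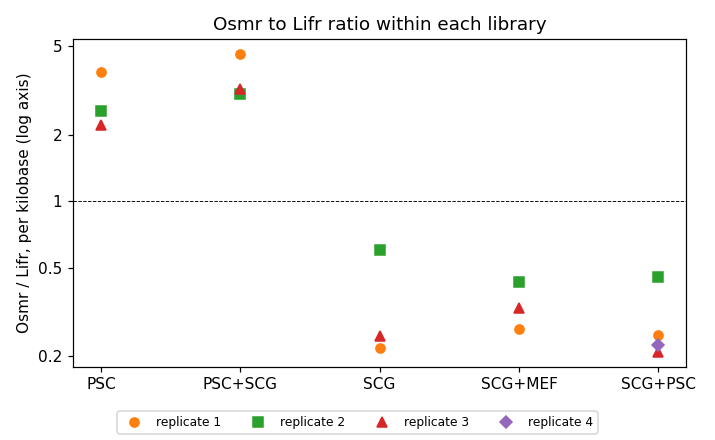
Ratio of Osmr to Lifr, both per kilobase of exon, in each of the 16 libraries on a log axis, with 1 point a library and a dashed line at equal levels. The PSC-table libraries lie above 1 and the explant libraries below 1, from 0.21 to 0.60.

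Whether SCG explants change this chain in PSCs was asked by comparing PSC+SCG with PSC. Osmr and Socs3 each had a higher mean in PSC+SCG, by about the same log2 amount, and both were higher in each same-numbered pair, but only a model that paired the libraries by number called them. Osmr, the oncostatin M receptor, was at 5880, 3804 and 2250 normalized counts in PSC replicates 1 to 3 and at 8627, 6136 and 2975 in PSC+SCG replicates 1 to 3. Replicate 1 was high and replicate 3 low in both groups, and the groups overlapped. On the log2 scale, PSC+SCG exceeded PSC by 0.55, 0.69 and 0.40 in pairs 1 to 3.

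Socs3, the feedback inhibitor of gp130 signaling, was at 1903, 1127 and 1080 normalized counts in PSC and at 2095, 2144 and 1616 in PSC+SCG. PSC replicate 1 was higher than PSC+SCG replicate 3, so the groups overlapped by that library. On the log2 scale, PSC+SCG exceeded PSC by 0.14, 0.93 and 0.58 in pairs 1 to 3, least in pair 1.

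Without a block, limma past an adjusted p of 0.05 and a log2 fold change of 0.5 in size called 0 of 9 tested members and 0 of all 21273 genes tested (0%). At an unadjusted p under 0.05 it counted 408 genes (1.92%), of which Socs3 was the only member (log2 fold change 0.55 ± 0.23 SE, limma adjusted p = 0.9999). Osmr had a log2 fold change of 0.55 ± 0.43 (limma adjusted p = 0.9999). On recovered reads, at the same adjusted p and log2 fold change thresholds, edgeR called 0 of 20933 genes and DESeq2 called 2 (0.00955%). With the replicate number as a block, Osmr (0.55 ± 0.10, 95% interval 0.34 to 0.76, limma adjusted p = 0.00906) and Socs3 (0.55 ± 0.12, 0.29 to 0.81, limma adjusted p = 0.0480) rose, which is 2 of 9 members beside 0.461% of all genes called and 0.315% called higher. The members were chosen with earlier results of these data known, so this count beside all genes is a description. Osmr is also among the genes that the paper reports as upregulated in these PSCs. Over the alternatives other than the left-out libraries, the adjusted p ranged from 0.00906 to 0.99999 for Osmr and from 0.0480 to 0.99999 for Socs3. These alternatives include the tests on recovered reads, which lacked PSC+SCG replicate 1. In the blocked fit Osmr was called in 2 of 6 fits that left out 1 library, those without PSC or PSC+SCG replicate 3, and was lost without a library of replicate 1 (log2 fold change 0.55, adjusted p at least 0.0799) or of replicate 2 (0.48). Socs3 was called in 4 of the 6 and lost without a library of replicate 2 (0.36). Leaving out either library of a pair gave the same fold change, because its partner then carries no weight. The 6 fits thus come in matched pairs and are not independent.

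**Figure D2:**
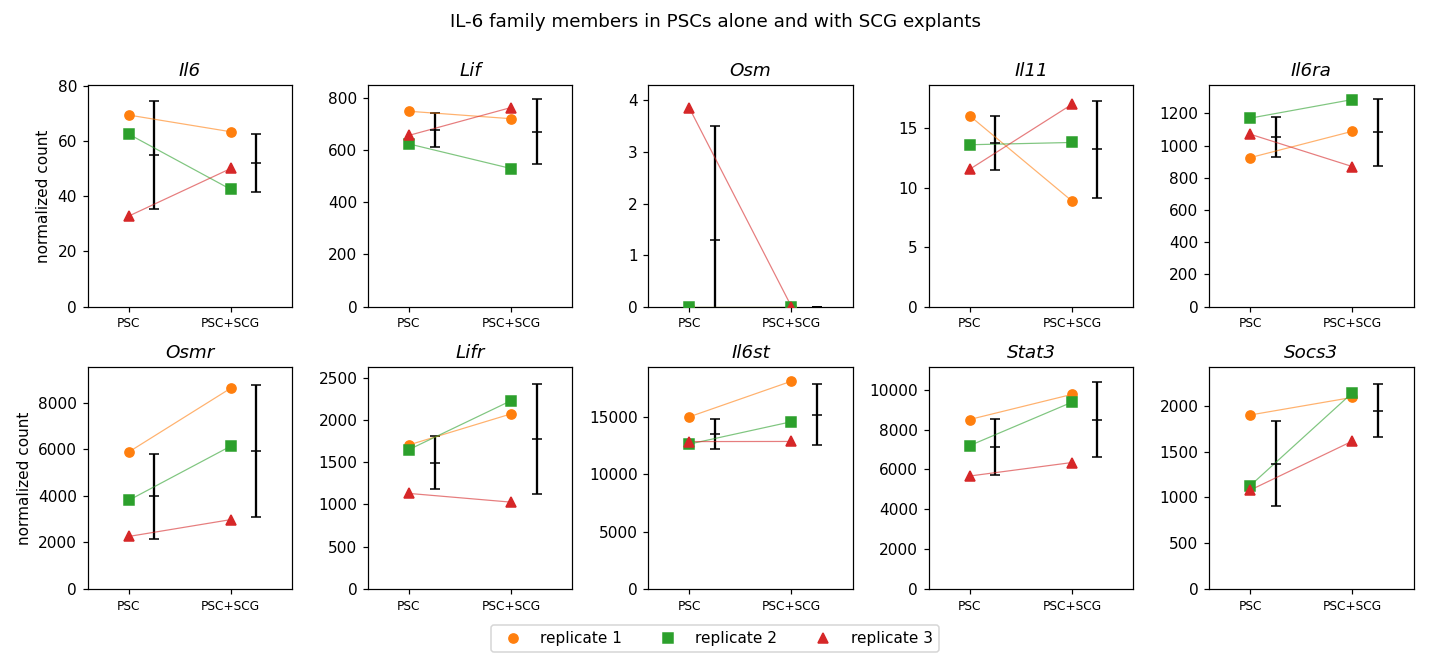
Normalized counts of the 10 genes in PSC and PSC+SCG, with 1 point a library, lines joining libraries with the same replicate number, and bars for the mean and SD (n = 3). Osmr, Stat3 and Socs3 are higher in PSC+SCG along each line while the groups overlap, and Osm is at 0 in 5 of the 6 libraries.

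The other members had smaller differences and were not called. Stat3 was at 8509, 7197 and 5668 normalized counts in PSC and at 9771, 9376 and 6346 in PSC+SCG, so each pair was higher, by 0.20, 0.38 and 0.16 on the log2 scale. With the block its log2 fold change was 0.25 ± 0.10 (limma adjusted p = 0.414). Il6st, which encodes gp130, had a log2 fold change of 0.16 ± 0.10 with the block and was higher in 3 of 3 pairs, and Lifr had 0.19 ± 0.12 and was higher in 2 of 3 pairs. Being higher in all 3 pairs was found for 12.3% of all genes tested and for 4 of the members. No member's groups were separate, against 2.68% of genes higher and 2.91% lower without overlap.

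None of these 4 ligands was called in PSCs. Lif was at 748, 623 and 656 normalized counts in PSC and 720, 529 and 763 in PSC+SCG, a log2 fold change of -0.03 with a 95% interval of -0.29 to 0.24 in the blocked fit. Il6 ranged from 32.8 to 69.3 in PSC and from 42.4 to 63.3 in PSC+SCG, and Il11 from 11.6 to 16.1 and from 8.90 to 17.0. Their blocked intervals, from -0.63 to 0.58 for Il6 and from -1.01 to 0.84 for Il11, still held changes of the size seen in Osmr.

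Of 18 genes known to be induced through STAT3, all were tested in PSCs and none was called without the block. The list was drawn from textbook knowledge with earlier results of these data known, so counts over it are a description. With the block 1 of 18 was called, Il4ra, which encodes the IL-4 receptor alpha chain and was named after its values were seen. It was at 5278, 2939 and 4078 normalized counts in PSC and 6785, 4827 and 6501 in PSC+SCG, with a log2 fold change of 0.58 ± 0.10 (limma adjusted p = 0.00619). It was called in 4 of 6 blocked fits that left out 1 library, which again come in matched pairs, with a limma adjusted p of at most 0.106. At an unadjusted p under 0.05 in the blocked fit 7 of 18 were higher and 0 lower, beside 3.31% of all genes higher and 5.06% lower, and the median log2 fold change of the list was 0.15 against -0.01 for all genes. The 4 most abundant, Timp1, Myc, Mcl1 and Irf1, were not among the 7. Timp1, a metalloproteinase inhibitor, had a mean of 4674 ± 712 normalized counts in PSC and 4539 ± 1407 in PSC+SCG, and Myc had 4134 ± 803 and 3786 ± 1343. Steap4, a metalloreductase chosen after its values were seen, was at 0.963 to 11.8 normalized counts in PSC and 3.19 to 48.4 in PSC+SCG. Since 2 of the 3 PSC libraries were at about 1 count, below the floor of 3 reads, no fold is given, and it was not called (limma adjusted p = 0.0675). Beside these genes, the glial marker Fabp7 was at a mean of 18.8 normalized counts in PSC and 44.6 in PSC+SCG (blocked log2 fold change 1.07, limma adjusted p = 0.289), while Sox10 did not exceed 1 in any library. The 6 glial markers summed to 126 to 183 in PSC and 159 to 186 in PSC+SCG, and their part in the results was not tested.

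**Figure D3:**
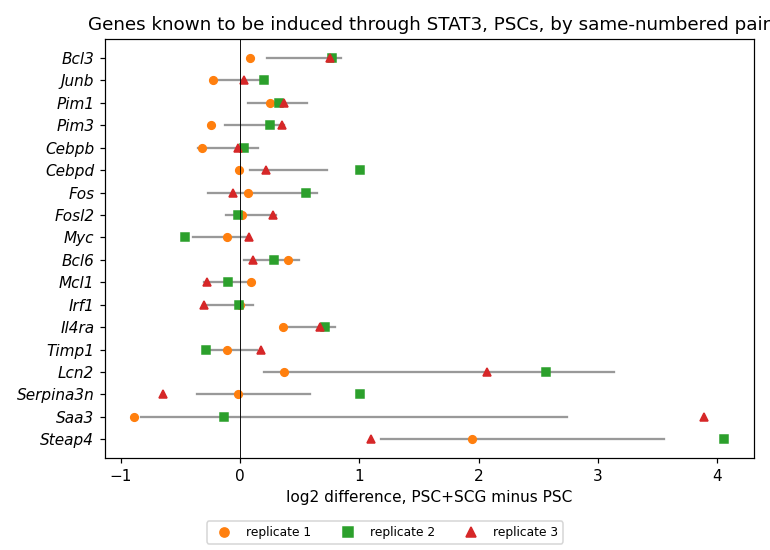
Log2 difference between PSC+SCG and PSC for the 18 genes known to be induced through STAT3, with 1 point a same-numbered pair and a gray line for the 95% interval of the blocked fit. Il4ra, Bcl3 and Pim1 lie above 0 in all 3 pairs, and Myc and Timp1 lie on both sides of 0.

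Among the other JAK/STAT genes no call was made in PSCs. This held for the 5 of 8 tested among the other ligands, the 4 other receptor chains, the 9 JAK and STAT genes tested and 9 other inhibitors, in both fits. In the blocked fit an unadjusted p under 0.05 was reached by 0, 1, 0 and 0 of them, beside 8.37% of all genes, and the 1 was Cntfr, at a mean of 9.62 normalized counts in PSC and 19.5 in PSC+SCG. Clcf1, which encodes a cytokine that acts through the CNTF receptor, had a mean of 1376 ± 151 normalized counts in PSC and 1578 ± 249 in PSC+SCG. Per kilobase this was 361 ± 39.6 in PSC, above the 147 of Lif. Jak1, a kinase on gp130, had 13277 ± 540 and 14358 ± 1206.

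In SCG explants, the question was whether PSCs or MEFs move the same chain in the ganglion. No member was called in any of the 3 comparisons, with or without the block. Without it, 0 of 10 members were called in SCG+PSC against SCG, beside 8 of 23779 genes (0.0336%), 0 of 10 in SCG+MEF against SCG, beside 3 genes (0.0126%), and 0 of 10 in SCG+PSC against SCG+MEF, beside 0 genes (0%). At an unadjusted p under 0.05 the 3 comparisons counted 5.05%, 3.37% and 4.08% of all genes and 0 of the members. The tests on recovered reads lacked SCG+PSC replicate 4 and covered 23680 genes. At an adjusted p of 0.05 and a log2 fold change of 0.5, edgeR called 3, 3 and 0 genes in the 3 comparisons. At the same threshold DESeq2 called 59, 22 and 18 genes (0.249%, 0.0929% and 0.076%). With the block the percentages of all genes called were 1.31, 0.16 and 0.786. No member's groups were separate in any of them, where 2.83% of genes were higher and 2.32% lower without overlap in SCG+PSC against SCG, 2.99% and 3.64% in SCG+MEF against SCG, and 2.47% and 2.3% between the cocultures.

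Lif, the injury cytokine, was at 3251, 2057 and 1330 normalized counts in SCG, at 1944, 2267 and 1199 in SCG+MEF and at 3158, 2887, 2219 and 2064 in SCG+PSC. The groups overlapped, and SCG+PSC had no library below 2064 whereas SCG and SCG+MEF each had a library at or below 1330. Against SCG+MEF its log2 fold change in SCG+PSC was 0.55 ± 0.29 without the block (limma adjusted p = 0.9998) and 0.65 ± 0.15 with it (95% interval 0.33 to 0.96, limma adjusted p = 0.0672), and the 3 same-numbered pairs were higher by 0.70, 0.35 and 0.89, as 15.5% of genes were higher in all 3 pairs. It was called in 1 of 7 blocked fits that left out a library, the one without SCG+MEF replicate 2 (0.82, limma adjusted p = 0.0437). The fit without SCG+PSC replicate 4 repeated the full blocked fold change, since that library carries no weight there. Against SCG the blocked log2 fold change of Lif was 0.40 ± 0.15 in SCG+PSC (limma adjusted p = 0.325) and -0.25 ± 0.15 in SCG+MEF (adjusted p = 0.744), comparisons that share the SCG libraries.

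Stat3 and Il6st had the narrowest intervals of the members in explants. Stat3 was at 9826 to 11270 normalized counts in SCG, 9462 to 10839 in SCG+MEF and 9734 to 11127 in SCG+PSC. The blocked intervals for Stat3 were -0.12 to 0.19 in SCG+PSC against SCG and -0.21 to 0.10 in SCG+MEF against SCG, which leave out a change as large as 0.5. Those of Il6st were -0.20 to 0.20 and -0.09 to 0.31. Socs3 was at 2903, 1775 and 1633 in SCG, 2458, 2044 and 1395 in SCG+MEF, and 2676, 1895, 2458 and 2314 in SCG+PSC, with replicate 1 highest in each group. Its blocked log2 fold change in SCG+PSC against SCG was 0.19 ± 0.15, with an interval of -0.13 to 0.51. The difference between explants and PSCs was not tested.

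Lifr was at 5812, 3706 and 4021 normalized counts in SCG and 5386, 3779, 7139 and 6991 in SCG+PSC. SCG+PSC replicates 3 and 4 were above every SCG library and replicates 1 and 2 were not, and the blocked log2 fold change was 0.25 ± 0.16. Osmr ranged from 888 to 1999 in SCG, 1197 to 1829 in SCG+MEF and 1211 to 1548 in SCG+PSC. Il11 ranged from 79.0 to 191 in SCG, 66.6 to 100 in SCG+MEF and 55.5 to 177 in SCG+PSC, and was lower in SCG+MEF in 3 of 3 pairs (blocked log2 fold change -0.67 ± 0.26, limma adjusted p = 0.576), beside 12.2% of genes lower in all 3 pairs. Il6 and Osm were low, at 13.2 to 51.4 and 3.04 to 28.8 normalized counts over the 10 libraries, and their blocked intervals were wide, from -1.15 to 0.25 for Il6 and from -1.07 to 2.03 for Osm in SCG+PSC against SCG.

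**Figure D4:**
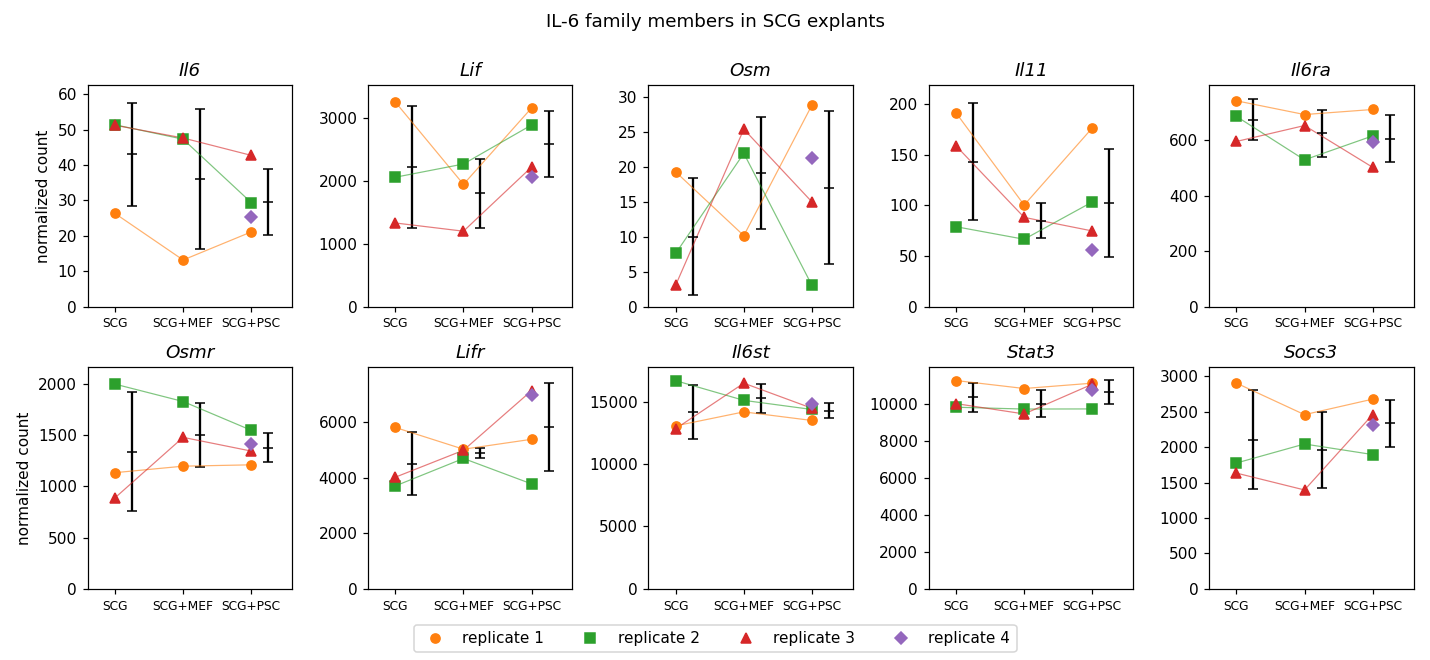
Normalized counts of the 10 genes in SCG, SCG+MEF and SCG+PSC, with 1 point a library, lines joining replicates 1 to 3, and bars for the mean and SD (n = 3, 3 and 4). Stat3 and Il6st differ little between groups, and the 4 SCG+PSC values of Lif lie between 2064 and 3158.

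**Figure D5:**
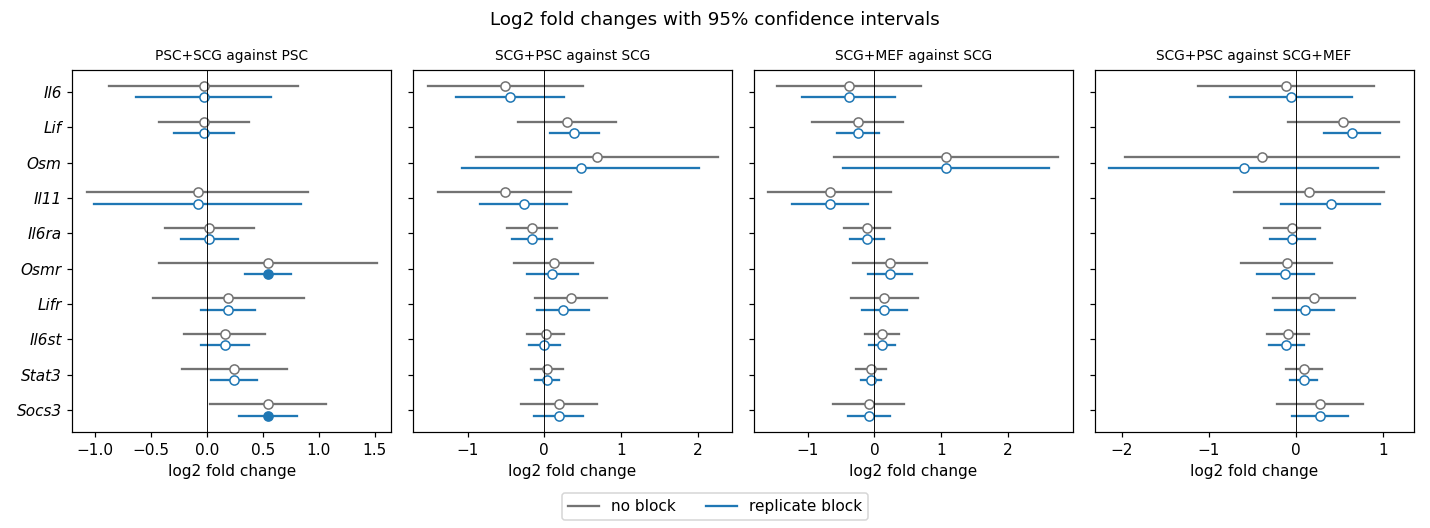
Log2 fold change and 95% interval of each member in the 4 comparisons, without (gray) and with (blue) the replicate block, filled where past the threshold. The filled points are Osmr and Socs3 in PSC+SCG against PSC.

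Of the 18 genes known to be induced through STAT3, 1 was called in explants with the block, Il4ra, and none without it. Il4ra was at 4093, 3505 and 3271 in SCG, 6943, 6245 and 4758 in SCG+MEF, and 6396, 5294, 5875 and 5577 in SCG+PSC, above every SCG library in both cocultures, so these groups were separate. With the block it rose by 0.69 ± 0.09 in SCG+PSC (limma adjusted p = 0.00660) and by 0.71 ± 0.09 in SCG+MEF (limma adjusted p = 0.00976), and was called in 6 of 7 and 2 of 6 blocked fits that left out a library. Of the 7, the fit without SCG+PSC replicate 4 only repeats the full blocked fit.

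Markers also differed between explant groups in the blocked fit. Mrc1, a macrophage marker, had a mean of 198 normalized counts in SCG and 446 in SCG+PSC (blocked log2 fold change 1.15, limma adjusted p = 0.00973), and Lum, a fibroblast marker, rose from a mean of 1064 to 1799 in SCG+PSC and to 2703 in SCG+MEF. Dcn, another fibroblast marker, rose by 0.74 on the log2 scale in SCG+MEF against SCG. The 10 fibroblast markers had a median blocked log2 fold change of 0.27 in SCG+PSC against SCG, with 8 of 10 above 0. In SCG+MEF against SCG their median was 0.22, with 9 of 10 above 0. Their sums overlapped, at 342306 to 579916 in SCG, 439802 to 595969 in SCG+MEF and 414164 to 565038 in SCG+PSC. Fabp7 fell by 0.50 in SCG+MEF against SCG and was higher by 0.56 in SCG+PSC than in SCG+MEF. The 6 glial markers as a set had a median blocked log2 fold change of 0.03 in SCG+MEF against SCG, with 4 of 6 above 0. Between the cocultures their median was 0.02, with 3 of 6 above 0. Glial sums overlapped, at 41993 to 56752 in SCG, 45815 to 60227 in SCG+MEF and 45122 to 56468 in SCG+PSC. The 8 macrophage markers summed to 13041 to 22499 in SCG and 13335 to 18072 in SCG+PSC, and over all 8 the median blocked log2 fold change was -0.08, with 2 of 8 above 0. Endothelial markers were higher in SCG+PSC than in SCG before adjustment. In the blocked fit 5 of 6 had an unadjusted p under 0.05, all higher, beside 6.72% of all genes higher. Of the 6, 0 were called by limma. Their median blocked log2 fold change was 0.87, and their sums did not overlap, at 2037 to 2197 in SCG and 2580 to 3407 in SCG+PSC. The 8 neuronal markers were all above 0 in SCG+MEF against SCG, with a median blocked log2 fold change of 0.14. In SCG+PSC against SCG 4 of 8 were above 0, with a median of 0.02. Between the cocultures 0 of 8 were above 0, with a median of -0.15. There 3 were lower at an unadjusted p under 0.05, beside 5.57% of all genes lower, and 0 of 8 were called by limma. The part of these markers in the results was not tested. Of 7 neuropeptide and cholinergic genes known to be induced by LIF, 0 were called by limma in any explant comparison. At an unadjusted p under 0.05 in the blocked fit, 1 of the 7 was higher and 1 lower in SCG+PSC against SCG, beside 10.6% of all genes. In SCG+MEF against SCG 2 were lower and none higher, beside 7.5%, and 3 were higher in SCG+PSC than in SCG+MEF, beside 11.7%. Sst, which encodes somatostatin and was chosen after its values were seen, had 4.10 to 19.2 normalized counts in SCG and 23.3 to 36.5 in SCG+PSC, without overlap (limma adjusted p = 0.0886). Chat, the acetylcholine-synthesizing enzyme, was chosen likewise and had 20.9 to 43.5 in SCG, at most 18.2 in SCG+MEF and 15.3 to 16.2 in SCG+PSC, below every SCG library in both cocultures (limma adjusted p = 0.169 and 0.519). Slc18a3, the vesicular acetylcholine transporter, had a mean of 528 ± 163 in SCG, 438 ± 133 in SCG+MEF and 384 ± 110 in SCG+PSC, and Gal, which encodes galanin, had 186 ± 121, 138 ± 26.1 and 170 ± 66.0.

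As a description, the genes most like Socs3 and Osmr were sought by Pearson correlation of log2 values among protein-coding genes with a mean of at least 100 normalized counts. Over the 6 PSC-table libraries Dhrs3 (r = 0.995) and Crispld2 (0.994) were nearest to Socs3, and Clca3a1 (0.997) and Sfrp1 (0.995) nearest to Osmr, among 11081 genes. Over the 10 explant libraries Ephb6 (0.97) and Rprm (0.97) were nearest to Socs3, and Nsmce2 (0.94) and Rnft1 (0.94) to Osmr. Stat3 was correlated with Socs3 at 0.84 in PSCs and 0.91 in explants, and with Osmr at 0.99 and -0.49. The libraries share groups, replicate numbers and size factors, and no test was made.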

How the data were processed

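Bulk RNA-seq was deposited for 16 mouse libraries. Per the labels and methods, the authors aligned reads with STAR 2.7.10b to GRCm39, counted stranded reads per gene on GENCODE M33 and divided them by DESeq2 1.38.3 size factors (R 4.2.2), separately for PSC and nerve libraries. The deposited values are this signal, unfiltered normalized counts. With limma 3.58.1 under R 4.3.3, log2(value + 1) was fitted for genes summing to at least 10, with Benjamini-Hochberg adjustment over all genes tested and a threshold of 0.05 and a log2 fold change of 0.5. Whole reads were recovered in 14 libraries (100% of values whole within 0.1) for edgeR 4.0.16 and DESeq2 1.42.0.

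The study's model held batch dates, which no source ties to libraries. The block assumes that libraries with the same replicate number belong together, which no source states. Deviations of same-numbered libraries correlated at 0.469 to 0.703 in PSCs and at 0.182 to 0.624 in explants. Libraries of different number reached at most 0.238 and 0.281. The pairing was least clear for SCG+PSC replicate 3. With SCG+MEF replicate 3 it correlated at 0.182, below the 0.281 of SCG+PSC replicate 4, and with SCG replicate 3 the values were 0.298 and 0.256. SCG+PSC replicate 4 has no library of the same number and carries no weight in blocked fits. Alternatives were this block, other pseudocounts (0.5, 8), filters, scalings, tests and left-out libraries. Lengths came from GENCODE M39. The limma fit without the block was tested on simulated data that held no replicate effect, and the blocked fit was not tested in this way. Members and lists were chosen with earlier results of these data known. All 10 members were named, with list genes past the threshold or otherwise the 4 most abundant per kilobase, not all of which are printed. Some list genes are not reported here.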

Additional observations from a re-analysis of the deposited data

How the results depend on the processing

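The count of members called was 0 in the main test of each comparison. With the replicate block it was 2 in PSC+SCG against PSC, and the block changed no other member's call. Leaving out 1 library, with and without the block, gave 0 to 2 members in PSC+SCG against PSC and 0 to 1 in SCG+PSC against SCG+MEF. The blocked fits without a library were added after seeing the data. The other pseudocounts, filters, scalings and tests gave 0 members. Of 967 log2 fold changes of single members under an alternative, 74 changed sign, none of them for Osmr or Socs3 in PSC+SCG against PSC, whose fold changes without 1 library ranged from 0.19 to 0.98 and from 0.36 to 0.81. In PSC+SCG against PSC, Il6 was 0.046 under quantile normalization and Il11 was 0.15 with edgeR and 0.16 with DESeq2. In SCG+PSC against SCG, Il6st was -0.0078 with edgeR and -0.0084 with DESeq2. The others changed sign when 1 library was left out. In PSC+SCG against PSC the ranges were -0.38 to 0.27 for Il11, -0.36 to 0.23 for Il6, -0.11 to 0.19 for Il6ra, -0.15 to 0.14 for Lif, -0.011 to 0.55 for Lifr. In SCG+PSC against SCG the ranges were -0.89 to 0.091 for Il11, -0.10 to 0.14 for Il6st, -0.025 to 0.63 for Lif, -0.30 to 1.35 for Osm, -0.14 to 0.45 for Osmr, -0.046 to 0.44 for Socs3, -0.024 to 0.10 for Stat3. In SCG+MEF against SCG the ranges were -0.70 to 0.20 for Il6, -0.26 to 0.016 for Il6ra, -0.57 to 0.075 for Lif, -0.038 to 0.34 for Lifr, -0.025 to 0.56 for Osmr, -0.27 to 0.17 for Socs3, -0.11 to 0.010 for Stat3. In SCG+PSC against SCG+MEF the ranges were -0.15 to 0.76 for Il11, -0.71 to 0.18 for Il6, -0.17 to 0.10 for Il6ra, -0.15 to 0.40 for Lifr, -1.59 to 0.27 for Osm, -0.26 to 0.046 for Osmr. For PSCs the tests on reads compared 3 libraries with 2, since reads were not recovered for PSC+SCG replicate 1. For explants they lacked SCG+PSC replicate 4. The cause of these changes was not tested. Depth limits Osm and Il11 in PSCs, whose counts lie near the floor or below 20.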
